A study of Zea mays with 11 samples.

Results

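Genes of amino acid synthesis and nitrogen assimilation were followed across kernel development of the maize inbred line Mo17, with ear leaf for comparison. The genes were chosen by the Arabidopsis product description that the authors gave beside a gene: any of 12 phrases for asparagine synthetase, glutamine synthetase or synthase, glutamate synthase, aspartate aminotransferase, aspartate kinase, homoserine enzymes, threonine synthase, tryptophan synthase, acetolactate enzymes, dihydrodipicolinate enzymes and lysine-ketoglutarate reductase. This gave 32 of the 34145 listed genes, and 9 of the 12 phrases found a gene. Only 11464 of the listed genes carried a description, and a gene without one could not be chosen. Family sums, shares and the main gene of a family below therefore refer to described genes only. No gene carried the phrases for threonine synthase, acetolactate enzymes or lysine-ketoglutarate reductase, so these steps were not analysed here. The phrase for glutamate synthase also took in a pair of N-acetylglutamate synthase matches, which belong to arginine synthesis, and that for glutamine synthase took in a nodulin-type relative.

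The samples were self-pollinated, field-grown Mo17 plants, and the labels name no treatment. Whole kernels came from 3 and 5 days after pollination (DAP) and ear leaf from 13 DAP. Dissected endosperm came from 7, 9, 10 and 11 DAP and from 13, 15, 20 and 25 DAP, and endosperm values below are listed in that stage order. Each of these 11 stages had 1 library of poly(A) RNA and no replicate, so the spread between ears of a stage was not measured. Values are FPKM, fragments scaled by transcript length and library size, as the authors deposited them. The sequencing depth behind them is unknown. Where libraries are said below not to overlap others, or to lie all above them, the share of all genes doing so was not counted.

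Plants take up nitrogen as nitrate or ammonium. Glutamine synthetase fixes ammonium onto glutamate, and glutamate synthase (GOGAT) then passes the amide group of glutamine to 2-oxoglutarate. Aspartate aminotransferase moves the amino group from glutamate to oxaloacetate to give aspartate. Aspartate is the precursor of asparagine, a main transport form of nitrogen, and of lysine, threonine, methionine and isoleucine. In the maize kernel, amino acids arrive from the mother plant and the endosperm turns them over for storage proteins, chiefly zeins, which are poor in lysine.

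The tissue labels were checked against marker genes. The summed FPKM of 8 storage protein and starch genes went from 80.8 at 7 DAP to 42340 in the 20 DAP endosperm and was 5.48 in leaf. The 63 photosystem and light-harvesting matches summed to 7195 FPKM in leaf and to between 21.7 and 31.2 in the endosperm libraries. The 5 embryo marker identifiers summed to between 23.3 and 139.6 FPKM in endosperm, with ole1, an oil body gene, the highest of them up to 15 DAP, and 2 of the 5 were listed at 0 at 7 DAP. The 4 transfer cell markers summed to 1018 FPKM at 7 DAP and 38.6 at 25 DAP. The 3 identifiers of the embryo-surrounding region summed to 184.6 FPKM at 7 DAP and 0.33 at 25 DAP. The 3 aleurone identifiers summed to 71.1, 141, 141 and 13.6 FPKM at 7, 11, 15 and 25 DAP. In such bulk tissue, fewer cells of a type and less RNA per cell cannot be told apart. The 10 highest genes of a library held 4.54% of its summed FPKM at 7 DAP and 27.1% at 25 DAP.

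Aspartate aminotransferase dominated the endosperm values. The gene GRMZM2G146677 matches ASP1, the mitochondrial enzyme of Arabidopsis. It stood at 27.3 and 34.2 FPKM in the 3 and 5 DAP kernels. In endosperm it was at 260.0, 334, 435, 436, 505, 434, 224 and 238 FPKM in stage order. Leaf had 19.0 FPKM. Every endosperm library was thus above the kernel and leaf libraries, with the maximum in mid development. By its mean over the 8 endosperm libraries, 358 FPKM, it ranked 73rd of the 34145 genes.

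The aminotransferase GRMZM2G094712 matches Arabidopsis ASP3. It was at 45.9 and 51.8 FPKM in kernels. In endosperm it stood at 183, 164, 310, 282, 419, 484, 246 and 330 FPKM in stage order. Leaf had 13.9 FPKM. Here too no endosperm library overlapped the kernel or leaf values. This gene was the highest of the 32 from 15 DAP on, and GRMZM2G146677 was the highest from 7 to 13 DAP. Together these 2 genes held 68.0% of the summed FPKM of the 32 genes at 7 DAP, 85.5% at 13 DAP and 81.8% at 25 DAP, against 16.1% in the 3 DAP kernel and 5.81% in leaf.

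Another gene, GRMZM5G836910, matches the plastid aspartate aminotransferase of Arabidopsis and differed from these 2 in the place of leaf. It was highest in leaf, at 252 FPKM, where it ranked 129th. In kernels it was at 11.5 and 10.6 FPKM. In endosperm, above both kernels, it ranged from 16.2 FPKM at 20 DAP to 52.7 at 15 DAP, with 27.1 at 7 DAP and 26.0 at 25 DAP. The remaining pair, GRMZM2G400604 and GRMZM2G033799, matches the plastid enzyme of Arabidopsis that also acts on prephenate in aromatic amino acid synthesis. Both were low, between 0.69 and 4.97 FPKM for the first and between 0.7 and 2.28 FPKM for the second in endosperm.

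**Figure D1:**
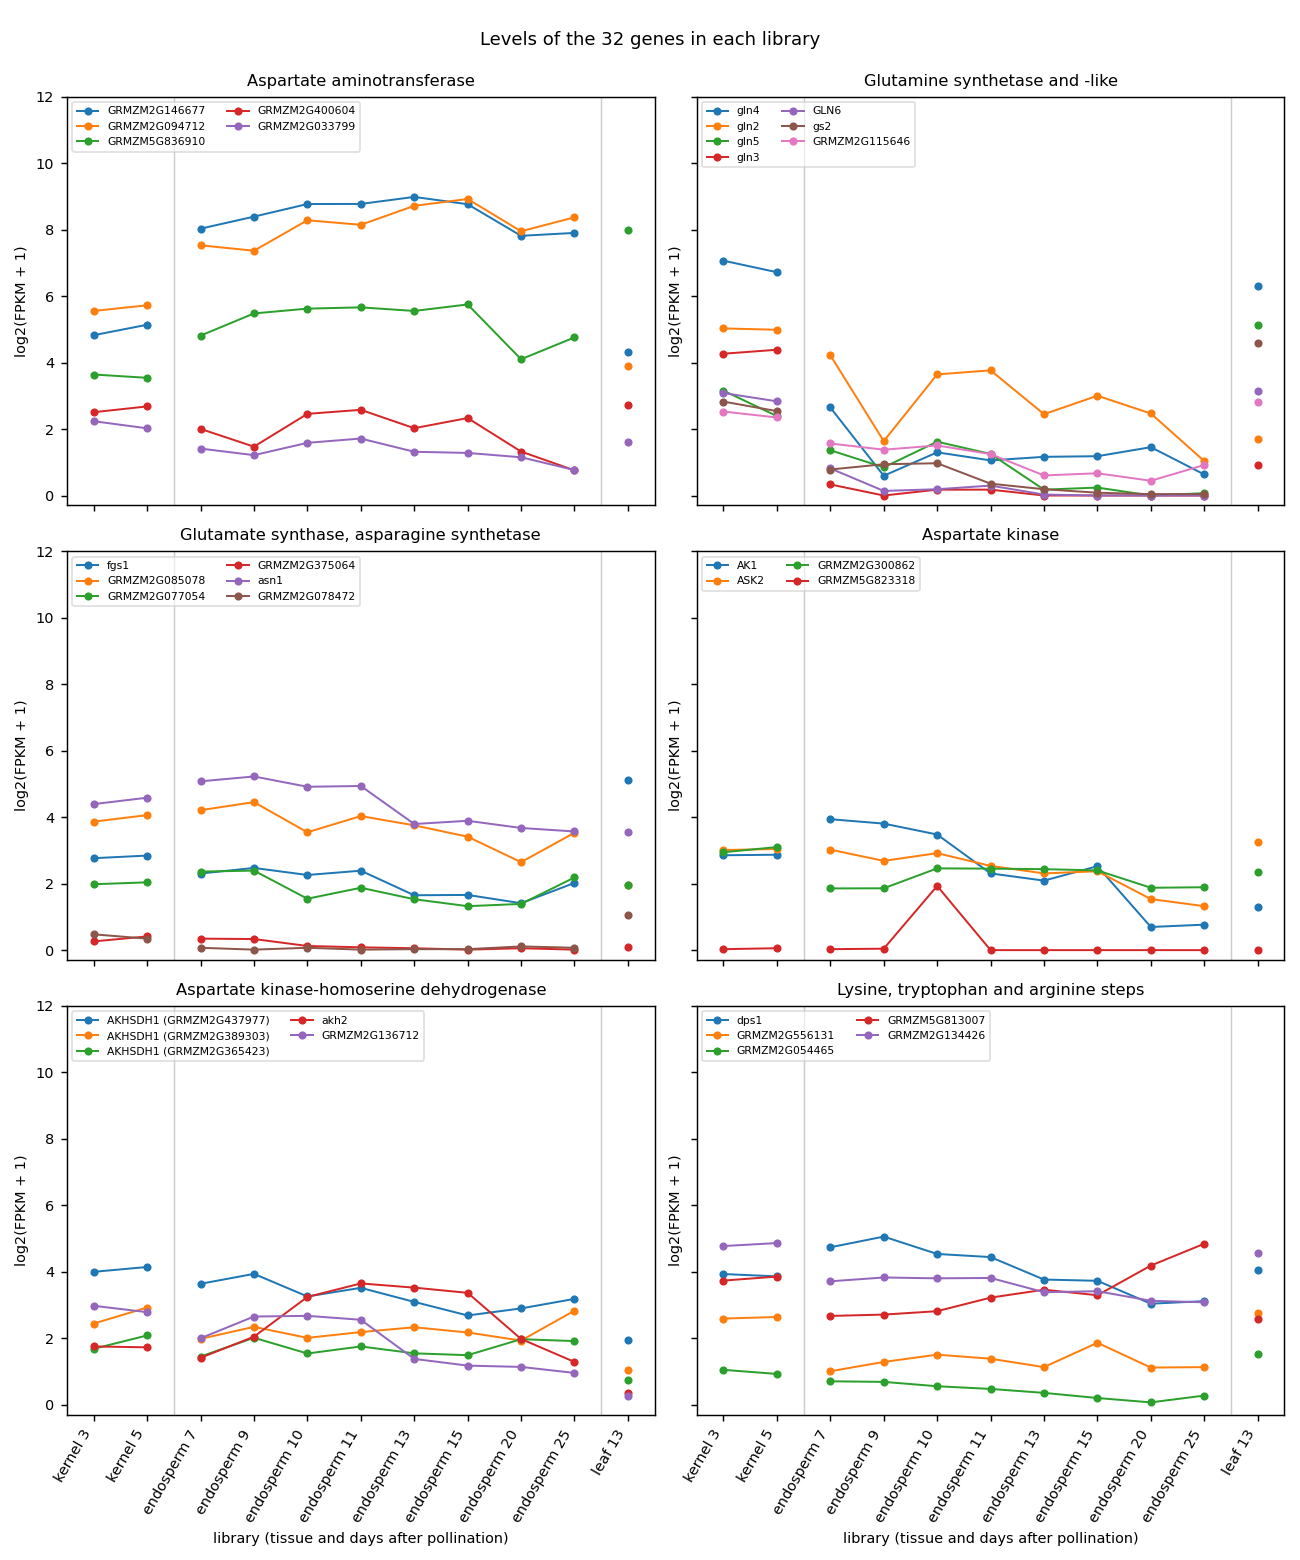
Levels of the 32 genes as log2(FPKM + 1), in 6 panels by enzyme. The x axis gives the 11 libraries by tissue and days after pollination, each point is 1 library, and lines join stages of the same tissue. The aminotransferases GRMZM2G146677 and GRMZM2G094712 stand above all others in endosperm, and most glutamine synthetase genes are highest in kernels or leaf.

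Trends over endosperm development were tested as the slope of log2(FPKM + 1) per day over the 8 endosperm libraries with limma, adjusted by the Benjamini-Hochberg method over all 15149 genes whose mean there reached 1 FPKM. "Rose" and "fell" refer to an adjusted p under 0.05. Changes that peak or dip were covered by an F-test of the day and its square in the same model, called the curved test below. Libraries of different days are not replicates, and departures from the line serve as the error. Of the 32 genes, 24 had a mean of at least 1 FPKM and were tested. The other 8 were gln3, gln5, GLN6, gs2, GRMZM2G375064, GRMZM2G078472, GRMZM5G823318 and GRMZM2G054465.

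Among the 24 tested genes 1 rose, 6 fell and 17 had no linear call. The falls were of asparagine synthetase, aspartate kinase and dihydrodipicolinate synthase genes, a bifunctional aspartate kinase-homoserine dehydrogenase and an N-acetylglutamate synthase match. Over all tested genes 10.3% rose and 37.4% fell, so the members' 4.17% and 25.0% do not stand out. In the curved test 12 of the 24 were called, against 54.4% of all tested genes. The median slope was -0.046 per day for the members and -0.034 for all tested genes, a change of -0.83 and -0.61 on the log2 scale over the 18 days. That general shift depended on scaling. Quantile normalization moved it to 0.023 and the members' median to -0.16, and upper quartile scaling to -0.17 and -0.34. Quantile normalization gave 3 rises and 4 falls among the members, and upper quartile scaling 2 rises and 5 falls. Without the 25 DAP library 11 members fell. The transfer cell and embryo-surrounding region markers went down and the storage markers up over the same stages. The aleurone markers were highest at 11 and 15 DAP. The part of such shifts in the members' slopes was not tested.

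**Figure D2:**
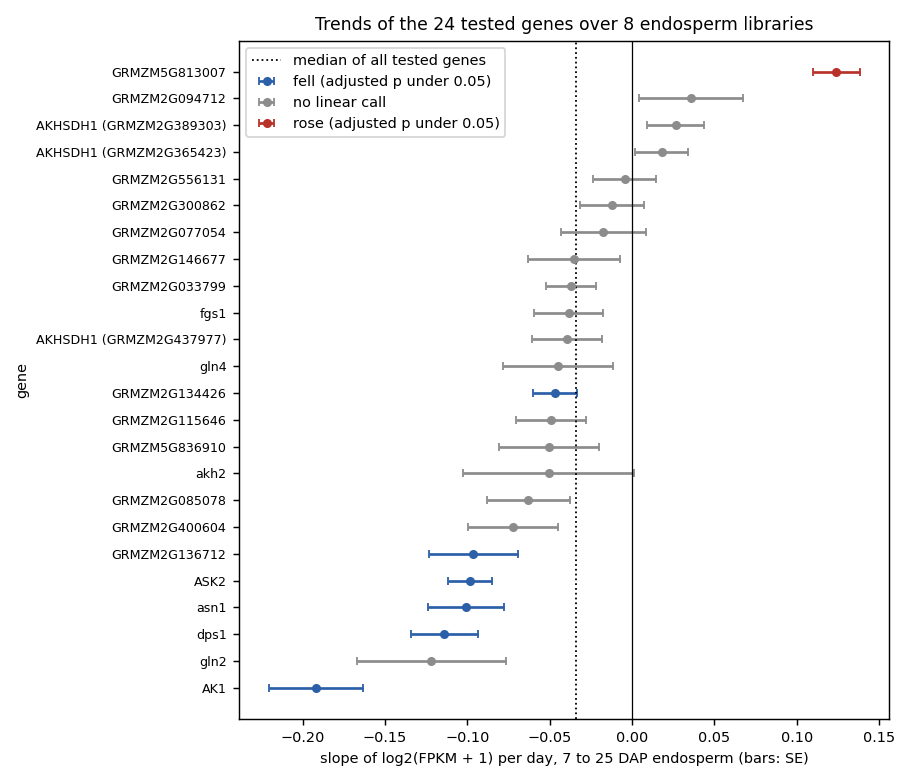
Daily slope of log2(FPKM + 1) of the 24 tested genes over the 8 endosperm libraries, with standard errors as bars and genes on the y axis ordered by slope. Blue and red points passed the limma test at an adjusted p under 0.05, grey points did not, and the dotted line is the median slope of all tested genes, -0.034. The slope of AK1 is the lowest at -0.192 and that of GRMZM5G813007 the highest at 0.124.

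The 3 main aspartate aminotransferases had no linear call. The slope of GRMZM2G146677 was -0.035 ± 0.028 SE (adjusted p = 0.32) and that of GRMZM2G094712 was 0.036 ± 0.032 (adjusted p = 0.37). The 13 DAP value was 1.94 times the 7 DAP value for the first and 2.29 times for the other, and the 25 DAP value was 0.471 and 0.786 times that of 13 DAP. The curved test did not call them (adjusted p = 0.15 and 0.16) with all libraries. It called GRMZM2G146677 without 20 DAP (0.037) or without 25 DAP (0.025), and GRMZM2G094712 without 20 DAP (0.032). GRMZM5G836910 was likewise not called (linear 0.2, curved 0.21), but the curved test called it without 20 DAP (0.028) or 25 DAP (0.006), over a range of 0.0052 to 0.36 in the 17 alternative fits. Without both 20 and 25 DAP, GRMZM2G094712 rose (slope 0.2, adjusted p = 0.018). Of the low pair, GRMZM2G400604 was called in the curved test (adjusted p = 0.024), though not without 25 DAP (0.18). It had no linear call (0.052), and fell without 9 DAP (0.015) or without 15 DAP (0.043). GRMZM2G033799 had no call.

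Glutamine synthetase transcripts were low in endosperm and abundant in young kernels and leaf. The 6 genes summed to 204 and 170.0 FPKM in the 3 and 5 DAP kernels. In endosperm the sum was 26.2, 4.44, 16.3, 15.7, 5.98, 8.52, 6.3 and 1.68 FPKM in stage order. Leaf had 146 FPKM. The kernel libraries hold the whole seed, with maternal tissues, and the endosperm libraries do not, so stage and tissue cannot be told apart between 5 and 7 DAP. Genes of the cytosolic glutamine synthetase family resemble each other, and the authors' mapping may have shared reads among them, which makes the values of single genes uncertain.

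The gene gln4, which encodes a cytosolic form, made up most of the kernel sum. It stood at 133 and 104 FPKM in kernels, 5.27 at 7 DAP, between 0.51 and 1.74 in the 7 later endosperm libraries and 77.4 in leaf. The 7 DAP value was 19.8 times lower than that of the 5 DAP kernel. Within endosperm it had no call (slope -0.045, adjusted p = 0.29). The related gln3, chosen outside the naming rule, was at 18.2 and 19.9 FPKM in kernels, at 0.9 in leaf and at or under 0.26 in endosperm, where 5 of the 8 libraries listed it at 0. Thus gln3 was high in the kernel libraries alone, and gln4 in both kernel and leaf.

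The gene gln2 (GRMZM2G024104) was the main glutamine synthetase of endosperm. It held 67.3% of the summed FPKM of the 6 genes at 7 DAP and between 47.5% and 82.3% over the endosperm libraries, against 15.5% in the 3 DAP kernel and 1.54% in leaf. Its values were 31.6 and 30.7 FPKM in kernels. In endosperm they were 17.6, 2.11, 11.5, 12.6, 4.45, 7.01, 4.53 and 1.05 FPKM in stage order, and leaf had 2.24. The slope was -0.122 ± 0.045 and missed the threshold (adjusted p = 0.051). The 9 DAP library lay below both of its neighbours, and without it gln2 fell (slope -0.162, adjusted p = 0.0022).

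The remaining genes of this family were highest in leaf. The plastid form gs2, which reassimilates ammonium released by photorespiration in leaves, was at 22.95 FPKM in leaf, 6.09 and 4.81 in kernels and 0.03 to 0.96 in endosperm. The gene gln5 had 34.3 FPKM in leaf, 7.91 and 4.24 in kernels and 0 to 2.07 in endosperm. GLN6 had 7.9 FPKM in leaf, 7.47 and 6.13 in kernels and 0 to 0.76 in endosperm. All 3 fell short of a mean of 1 FPKM in endosperm and were not tested. The nodulin-type match GRMZM2G115646 was between 0.36 and 1.96 FPKM in endosperm and 5.98 in leaf. The curved test called it (adjusted p = 0.015), though not without 20 DAP (0.05, rounded), and without 25 DAP it fell (0.012).

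**Figure D3:**
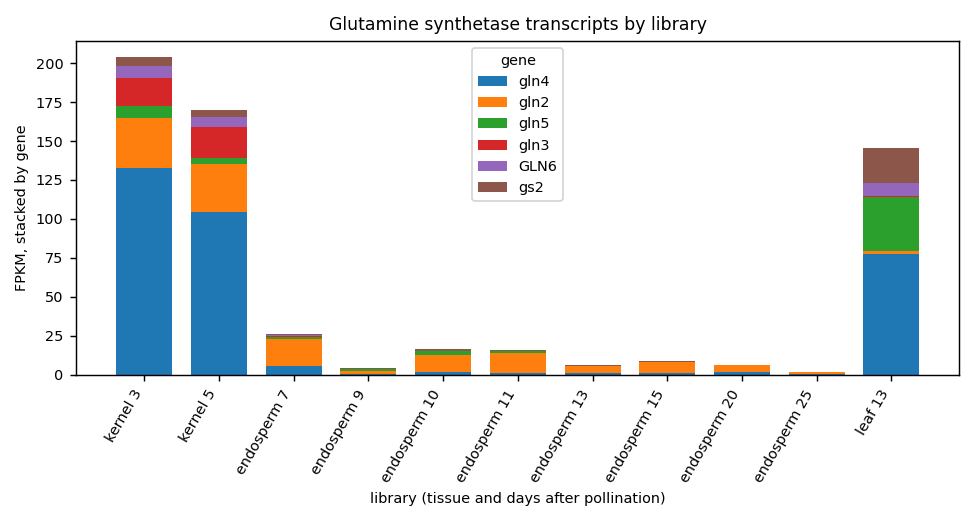
Stacked FPKM of the 6 glutamine synthetase genes (y axis, linear) in each of the 11 libraries (x axis, tissue and days after pollination), with 1 colour per gene. The kernel bars reach 204 and 170.0 FPKM, mostly gln4, the leaf bar 146, and the endosperm bars at most 26.2, mostly gln2.

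The most abundant glutamate synthase gene was a different one in leaf and in endosperm. The ferredoxin-dependent gene fgs1, whose enzyme works in chloroplasts, was at 33.7 FPKM in leaf, 5.8 and 6.18 in kernels and between 1.66 and 4.55 in endosperm. The NADH-dependent match GRMZM2G085078 was the main form of endosperm, with 61.3% to 75.4% of the family sum in the endosperm libraries. Its values were 13.6 and 15.7 FPKM in kernels. In endosperm they were 17.5, 20.9, 10.7, 15.4, 12.5, 9.65, 5.26 and 10.6 FPKM in stage order, and leaf had 2.88. The level was thus lowest at 20 DAP and higher again at 25 DAP.

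For GRMZM2G085078 the linear test gave an adjusted p of 0.064 and the curved test 0.043. The curved call was lost without 9 DAP (0.075), 11 DAP (0.064), 13 DAP (0.057), 15 DAP (0.079) or 20 DAP (0.14), and after quantile normalization or upper quartile scaling (both 0.17). Without 25 DAP the gene fell (adjusted p = 0.0076). Another NADH-dependent match, GRMZM2G077054, was between 1.5 and 4.25 FPKM in endosperm, 2.95 and 3.11 in kernels and 2.92 in leaf, so leaf lay within the endosperm range. It was also higher at 7, 9 and 25 DAP than between. It was called in the curved test only (adjusted p = 0.019), not without 15 DAP (0.066), and fell without 25 DAP (0.043). The fgs1 slope was -0.039 (adjusted p = 0.15). It fell without 25 DAP (0.015) and passed the curved test without 7 DAP (0.016) or 25 DAP (0.042), against 0.054 with all libraries. The last NADH-dependent match, GRMZM2G375064, was at or under 0.33 FPKM in all 11 libraries.

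Asparagine synthetase uses glutamine to make asparagine, and 1 of its 2 matches carried nearly all of the summed FPKM. The gene asn1 was at 20.0 and 23.0 FPKM in kernels. In endosperm it stood at 32.8, 36.4, 29.2, 29.6, 12.9, 13.8, 11.8 and 10.9 FPKM in stage order, and leaf had 10.8. The 4 libraries up to 11 DAP did not overlap the 4 later ones, with the step between 11 and 13 DAP. How common such a split is among all genes was not counted. The fall was called (slope -0.101 ± 0.023, adjusted p = 0.0074), with an adjusted p between 0.0016 and 0.028 over the 17 alternative fits. The ASN2 match GRMZM2G078472 was at most 1.09 FPKM, in leaf, and at or under 0.08 in endosperm.

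Aspartate kinase opens the branch to lysine, threonine and methionine and is inhibited by its end products. The gene AK1 (GRMZM2G024686) had the steepest fall of the 24. It was at 6.23 and 6.31 FPKM in kernels, 14.3, 12.99, 10.1, 3.95, 3.26, 4.75, 0.62 and 0.7 FPKM in the endosperm libraries in stage order and 1.46 in leaf. The early libraries up to 10 DAP were all above the later ones. Its slope was -0.192 ± 0.029 (adjusted p = 0.0014), and the call held in all 17 alternative fits, the highest adjusted p being 0.031.

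ASK2 fell as well, with 7.13, 3.95 and 1.5 FPKM at 7, 13 and 25 DAP (slope -0.099 ± 0.014, adjusted p = 0.0012). Its kernel values were 7.06 and 7.24 FPKM and its leaf value 8.51, above every endosperm library. That call was lost only without both 20 and 25 DAP (0.065) among the fits run. GRMZM2G300862 lay between 2.62 and 4.5 FPKM across the endosperm libraries and was not called (adjusted p = 0.63). The last match, GRMZM5G823318, was at 2.81 FPKM at 10 DAP and at or under 0.04 in the other 10 libraries. Its level therefore rests on 1 library.

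The bifunctional aspartate kinase-homoserine dehydrogenases lead towards threonine and methionine, and they differed among themselves. The gene akh2 had a peak in mid endosperm. It stood at 2.37 and 2.31 FPKM in kernels, 1.66, 3.13, 8.46, 11.5, 10.5, 9.31, 2.94 and 1.44 FPKM in the endosperm libraries in stage order and 0.27 in leaf. The 4 libraries from 10 to 15 DAP were all above the other 7. The linear test did not call it (slope -0.051, adjusted p = 0.45). The curved test did (adjusted p = 0.013), also in all 17 alternative fits (0.00055 to 0.039). Of the 24 members in the filter it was the 1 gene at least 4-fold higher at 13 than at 7 DAP on the log2(FPKM + 1) scale (6.32 times in FPKM), where 2.29% of all genes were, and 0 members were as far lower (6.19% of all genes). It was also the 1 of 22 at least 4-fold lower at 25 than at 13 DAP (7.28 times), against 3.71% of all genes, and 0 were as far higher (0.927%).

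The other genes of this enzyme were flatter or fell. GRMZM2G136712 had 3.0, 5.38, 1.6 and 0.94 FPKM at 7, 10, 13 and 25 DAP, and 0.2 in leaf. It fell (slope -0.097 ± 0.027, adjusted p = 0.017), but not after quantile normalization (0.12), without 9 and 25 DAP (0.07) or without 20 and 25 DAP (0.12). The 3 identifiers GRMZM2G437977, GRMZM2G389303 and GRMZM2G365423 belong to 1 gene, AKHSDH1, in the RefSeq table. Whether they are separate genes or pieces of one was not tested. Their ratio was not constant: GRMZM2G437977 was 3.88 times GRMZM2G389303 at 7 DAP and 1.32 times at 25 DAP. None had a linear call (adjusted p = 0.15, 0.23 and 0.38). GRMZM2G437977 had 11.45, 5.43 and 8.09 FPKM at 7, 15 and 25 DAP. It fell without 25 DAP (0.043) and was called in the curved test without 7 DAP (0.031). The other 2 rose after quantile normalization (0.028 and 0.043). These 3 identifiers count separately among the 24.

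Dihydrodipicolinate synthase is the first enzyme committed to lysine. The gene dps1 was at 14.3 and 13.5 FPKM in kernels. In endosperm it stood at 25.65, 32.3, 22.2, 20.7, 12.6, 12.25, 7.22 and 7.67 FPKM in stage order, and leaf had 15.7. As with asn1, the libraries up to 11 DAP did not overlap the later ones. It fell (slope -0.114 ± 0.02, adjusted p = 0.0025), with an adjusted p of at most 0.023 in the 17 alternative fits. The other match, GRMZM2G556131, was between 1.01 and 2.64 FPKM in endosperm, 5.03 and 5.23 in kernels and 5.72 in leaf, without a call (adjusted p = 0.86). Leaving the bifunctional genes aside, the aspartate kinases AK1 and ASK2 and the dihydrodipicolinate synthase dps1 fell. GRMZM2G300862 and GRMZM2G556131 had no call. Over all tested genes 37.4% fell, and other steps between aspartate and lysine were not among the members.

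The tryptophan synthase match GRMZM2G054465, a beta subunit of type 2, was low everywhere. It had 1.07 and 0.9 FPKM in kernels, 0.05 to 0.63 in endosperm and 1.9 in leaf.

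The N-acetylglutamate synthase matches, which acetylate glutamate at the start of arginine synthesis, moved in opposite directions. GRMZM5G813007 was the only member that rose. It was at 12.3 and 13.5 FPKM in kernels, 5.37, 5.55, 6.03, 8.33, 10.0, 8.81, 17.2 and 27.7 FPKM in the endosperm libraries in stage order and 5.03 in leaf. The slope was 0.124 ± 0.014 (adjusted p = 0.0007), and the call was lost only without both 20 and 25 DAP (0.052) among the fits run. The 25 DAP library also held the most glb2, a globulin marker of the embryo list, at 57.2 FPKM against 6.03 at 20 DAP. The embryo list was not uniform. The low emb5 was also highest at 25 DAP (0.96 FPKM), but ole1 had 121 FPKM at 10 DAP and 40.5 at 25 DAP. The glb1 identifier GRMZM2G067919 had 28.95 at 11 DAP and 19.0 at 25 DAP. The list summed to 139.6 FPKM at 11 DAP and 117.7 at 25 DAP. The part of embryo tissue in the rise was not tested.

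GRMZM2G134426 fell slightly, with 12.1 and 7.46 FPKM at 7 and 25 DAP, 26.35 and 28.1 in kernels and 22.85 in leaf. Its slope of -0.047 ± 0.014 (adjusted p = 0.02) was close to the median of all genes, and the call was lost after quantile normalization (0.28), upper quartile scaling (0.26), without 9 and 25 DAP (0.073) and without 20 and 25 DAP (0.23). The sum of both matches lay between 17.5 and 21.4 FPKM until 15 DAP and was 35.2 at 25 DAP. The GRMZM5G813007 share of that sum was 78.8% at 25 DAP, while GRMZM2G134426 held 69.3% at 7 DAP.

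Ear leaf and endosperm were compared at 13 DAP, by the ratio of (FPKM + 1) between 1 library each and without a test. Of the 27 members whose mean over the 2 libraries reached 1 FPKM, 7 were at least 4-fold higher in leaf (25.9%) and 3 at least 4-fold lower (11.1%). Over all 17374 genes in the same filter 20.0% were higher and 7.23% lower. The median log2 ratio was 0.31 for the members and 0.285 for all genes. The genes higher in leaf were gln4 (log2 ratio 5.13), gln5 (4.97), gs2 (4.39), fgs1 (3.47), GLN6 (3.13), GRMZM5G836910 (2.43) and GRMZM2G115646 (2.20). They hold the plastid and most cytosolic glutamine synthetases, the chloroplast glutamate synthase and the plastid aspartate aminotransferase.

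The genes lower in leaf were the aminotransferases GRMZM2G094712 and GRMZM2G146677 and the bifunctional kinase akh2. GRMZM2G094712 had 13.9 FPKM in leaf and 419 in endosperm (log2 ratio -4.82). GRMZM2G146677 had 19.0 and 505 (log2 ratio -4.66). For akh2 the values were 0.27 and 10.5 (log2 ratio -3.18). The lysine gene dps1 and asn1 were within 1.3 times between the tissues: dps1 had 15.7 FPKM in leaf and 12.6 in endosperm, and asn1 had 10.8 and 12.9. Between the kernels of 3 and 5 DAP, 0 of 28 members were 4-fold apart in either direction, against 0.374% of all genes higher and 0.169% lower.

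**Figure D4:**
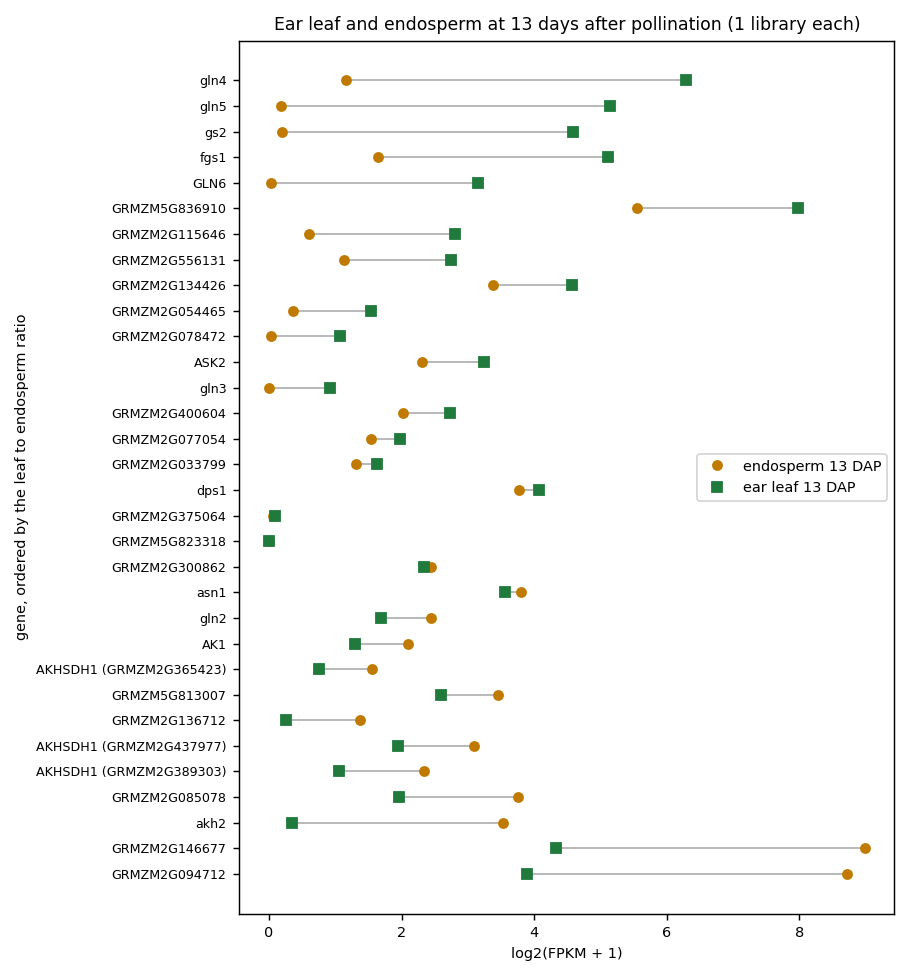
The 32 genes as log2(FPKM + 1) in endosperm (circles) and ear leaf (squares) at 13 DAP, 1 library each, with genes on the y axis ordered by their leaf to endosperm ratio. The top 7 genes are at least 4-fold higher in leaf and the bottom 3 at least 4-fold lower, with GRMZM2G094712 at 13.9 FPKM in leaf and 419 in endosperm.

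Other genes in or near amino acid metabolism were taken from a list of further product words, 128 genes, of which 70 were tested. Among these 5 rose, 33 fell and 32 had no linear call, with a median slope of -0.065. Of all tested genes 10.3% rose and 37.4% fell, with a median slope of -0.034. The word for shikimate had brought in 27 hydroxycinnamoyl transferase matches of phenylpropanoid metabolism. Without them, 5 of 67 tested genes rose and 31 fell. These rises still include GRMZM2G010238 and GRMZM2G135816 (limma adjusted p = 0.049 and 0.0061). Both match a cofactor of nitrate reductase and xanthine dehydrogenase, not an enzyme of amino acid synthesis. Isochorismate synthase and aminodeoxychorismate matches were in the list too. Quantile normalization gave 9 rises and 20 falls over the whole list. In that fit 3033 of all 15149 tested genes rose and 2733 fell. Without the 25 DAP library 9 genes of the list rose, and 1453 of all 15314 tested genes (9.49%). Without both 20 and 25 DAP 19 genes of the list fell, and 3602 of all 15389 tested genes (23.4%). How many list genes were tested in these fits is not given, so shares of the list are not compared. The 3 rising genes whose mean reached 10 FPKM were GRMZM2G130062, GRMZM2G080828 and GRMZM2G043887.

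GRMZM2G130062 matches 2-isopropylmalate synthase, the entry to leucine synthesis, and was the highest of the list. It had 22.2 and 27.1 FPKM in kernels, 42.7 in leaf and 40.4, 104, 309.9 and 647 at 7, 10, 13 and 25 DAP in endosperm, a rise (slope 0.215 ± 0.04, adjusted p = 0.00295). Another match to it, GRMZM2G537291, had 45.2, 67.6 and 23.55 FPKM at 7, 10 and 25 DAP and fell (adjusted p = 0.018), though not after quantile normalization (0.076), upper quartile scaling (0.065) or without 20 and 25 DAP (0.58). The isopropylmalate dehydrogenase matches GRMZM2G104613 and GRMZM5G803490, of the same pathway, had means of 79.5 and 73.6 FPKM and no call (adjusted p = 0.615 and 0.972).

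GRMZM2G080828, the match to ornithine aminotransferase, which links ornithine with proline and glutamate, rose, with 6.24, 28.1 and 72.4 FPKM at 7, 13 and 25 DAP (slope 0.194, adjusted p = 0.0024). The threonine aldolase match GRMZM2G043887, an enzyme that splits threonine into glycine and acetaldehyde, rose as well, with 3.89, 19.0 and 52.1 FPKM at these days, and was listed at 0 in leaf (slope 0.162, adjusted p = 0.0033). The other tested threonine aldolase matches did not rise. GRMZM2G004824 had 15.8, 1.26 and 0.68 FPKM at these days (linear adjusted p = 0.058, curved 0.010). GRMZM2G147256 and GRMZM2G147268 had no linear call (adjusted p = 0.155 and 0.449). Over the same libraries asn1, AK1 and dps1 fell, as did 37.4% of all tested genes. A link between these rises and falls was not tested.

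The 5 steepest falls with a mean of at least 10 FPKM were spread over several pathways. The proline synthesis match GRMZM2G028535 (pyrroline-5-carboxylate synthase) had 40.4, 1.14 and 0.66 FPKM at 7, 13 and 25 DAP (adjusted p = 0.0093). The methionine synthase match GRMZM2G149751 had 62.4, 7.73 and 2.56 FPKM (adjusted p = 0.0016). The carbamoyl phosphate synthetase match GRMZM2G029573, an enzyme of arginine and pyrimidine synthesis, had 37.8, 9.76 and 3.13 FPKM (adjusted p = 0.0011). The list's next falls were in tryptophan and serine synthesis. The anthranilate synthase beta subunit match GRMZM2G171383 had 22.0, 9.9 and 1.66 FPKM (adjusted p = 0.00063), and the serine pathway gene psat1 (GRMZM2G300801, phosphoserine aminotransferase) 27.4, 10.9 and 3.18 (adjusted p = 0.0016), lost only without both 20 and 25 DAP (0.066).

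Of the tryptophan branch, the anthranilate synthase match GRMZM2G161337 was among the 6 highest means of the list. It had 73.2, 91.3 and 38.3 FPKM at 7, 11 and 25 DAP and fell (adjusted p = 0.011), but not without 25 DAP (0.059), after quantile normalization (0.13) or after upper quartile scaling (0.086). The beta subunit match GRMZM2G325131 was between 29.85 and 59.3 FPKM in endosperm and 114 in leaf, with no call (adjusted p = 0.27).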

How the data were processed

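The authors deposited 1 table of FPKM values for 34145 genes in 11 libraries, with 2 decimals. Tools named by the submitters' processing notes are cutadapt, TopHat2 and edgeR. The sources used here give no versions, genome build, annotation or counter. Counts, gene lengths and library sizes were not in the table, so no counting error is given.

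Values were analysed as log2(FPKM + 1), a scale on which changes of low genes are understated. Slopes per day and the curved test were fitted with limma 3.58.1 in R 4.3.3 (eBayes with a mean-variance trend), two-sided, for genes whose mean over the 8 endosperm libraries reached 1 FPKM, leaving 6 and 5 residual degrees of freedom. The fit was also run on simulated slopes with independent noise for each library. Such a run cannot show whether departures from the line are a fair error in these unreplicated libraries. Single libraries were compared by ratio only, at a threshold of 4-fold. Samples were grouped by the stage in their titles. Alternatives were other pseudocounts, filters, scalings, time axes and left-out libraries.

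The members, lists and tests were chosen with earlier results of these data known. Named were members with an endosperm mean of at least 10 FPKM, at least 20 FPKM in any library, a call, or a 4-fold leaf difference with at least 5 FPKM. Of the further list, the 5 steepest called slopes each way (3 rises existed) and the 6 highest means were named. The AKHSDH1 identifiers, gln3 and other low members fall outside that rule and were named after their values were seen. So do the nitrate reductase cofactor matches and the threonine aldolase matches other than GRMZM2G043887. Gene names came from the synonyms of a RefSeq table of Zm-B73-REFERENCE-NAM-5.0, which matched 26 of the 32 members. The synonym GLN2 is also listed for gs2 there. The planned promoter motif search was not run, since no sequence was used here.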

Additional observations from a re-analysis of the deposited data

How the results depend on the processing

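Counts of members over the endosperm series stayed within 1.5 times in most alternative fits. The exceptions were the rises, at 3 after quantile normalization, 2 after upper quartile scaling and 2 without 20 and 25 DAP, against 1, the falls on leaving out 1 library (6 to 11 against 6), and the curved calls, at 1 without 20 and 25 DAP against 12 (8 to 14 on leaving out 1 library). Shares of all tested genes also moved. After quantile normalization 20.0% of them rose, and after upper quartile scaling 18.2%. Without 20 and 25 DAP, 9.79% of all tested genes rose and 16.5% had a curved call, against 8.0% and 4.0% of the members. On leaving out 1 library, 29.9% to 36.6% of all tested genes fell. Leaving out 20 and 25 DAP, or 9 and 25 DAP, was chosen after seeing the data. With a pseudocount of 5, 0 members were 4-fold higher at 13 than at 7 DAP and 0 lower at 25 than at 13 DAP, the latter also after quantile normalization. The count of leaf differences stayed within 1.5 times. Of the 24 tested members, slopes of uncalled genes changed sign as follows. After quantile normalization they were 0.0164 (GRMZM2G077054), 0.0027 (GRMZM2G033799), 0.022 (GRMZM2G300862) and 0.0333 (GRMZM2G556131). Upper quartile scaling gave 0.00699, 0.0122 and 0.0138 for GRMZM2G077054, GRMZM2G300862 and GRMZM2G556131. Without 20 and 25 DAP they were 0.0974 (GRMZM2G146677), 0.092 (GRMZM5G836910), 0.0516 (GRMZM2G400604), 0.255 (akh2, adjusted p = 0.04), 0.076 (GRMZM2G300862), 0.0728 (GRMZM2G556131) and -0.0166 (GRMZM2G365423). For akh2 the slope was 0.0299 without 25 DAP (from -0.107 on leaving out 1 library) and 0.008 without 9 and 25 DAP. For GRMZM2G389303 it was -0.00878 (up to 0.0418 on leaving out 1 library) and -0.00233. GRMZM2G300862 had 0.0015 with stages ranked in place of days, and -0.0265 to 0.0019 on leaving out 1 library. GRMZM2G556131 had 0.01 with ranked stages, 0.00572 with log2 days, 0.00881 without 9 and 25 DAP, and -0.0168 to 0.00925 on leaving out 1 library, with 0.000717 without 20 DAP. Of the further list, GRMZM2G104613 had 0.0241, 0.0156 and 0.085, and GRMZM2G325131 0.0102, 0.00389 and 0.0511, after quantile normalization, upper quartile scaling and without 20 and 25 DAP. GRMZM5G803490 had -0.0128 without 7 DAP, -0.0162 without 25 DAP (up to 0.02 on leaving out 1 library) and -0.0184 without 9 and 25 DAP. Over all members and alternatives, 348 slopes kept direction and side of the threshold, 9 lost a call, 26 gained one and 25 changed sign. The cause was not tested. The curved calls of GRMZM2G085078, GRMZM2G134426 and GRMZM2G136712 were lost in 11 alternatives each, and that of GRMZM2G400604 in 5. No paired analysis was possible because each stage has 1 library. With 1 library a stage and depth unknown, differences between neighbouring stages have no error.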

Other observations

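Among further genes of the list, chosen after their values were seen, the asparaginase B1 identifiers GRMZM2G082032 and GRMZM2G531230, for an enzyme that releases ammonium from asparagine, had uneven levels between neighbouring stages. They share 1 gene in the RefSeq table, so they may not be independent. GRMZM2G082032 had 2.06, 1.11, 9.45, 4.75, 5.73, 5.41, 18.7 and 1.41 FPKM in the endosperm libraries in stage order and 37.0 in leaf. GRMZM2G531230 was listed at 0 in the 9 DAP library, with 9.7, 21.0 and 0.08 FPKM at 10, 20 and 25 DAP and 36.2 in leaf. Both were low in the 9 and 25 DAP libraries, as was gln2, but they differed from gln2 elsewhere. At 7 DAP they had 2.06 and 1.85 FPKM and gln2 17.6, its endosperm maximum. At 20 DAP, where both were highest in endosperm, gln2 had 4.53. Neither identifier had a linear call (limma adjusted p = 0.74 and 0.95). The asparaginase A1 match GRMZM2G129540 fell, with 4.63 and 0.19 FPKM at 7 and 25 DAP (limma adjusted p = 0.0039).

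Some genes were far higher in young kernels than in later endosperm, as gln4 was. The glutamate decarboxylase match GRMZM2G017110, an enzyme that makes 4-aminobutyrate from glutamate, had 118 and 113 FPKM in kernels, 5.19 in 7 DAP endosperm, at most 1.07 later and 54.6 in leaf. The DAHP synthase match GRMZM2G117707, which opens the shikimate pathway, had 137 and 126 FPKM in kernels, 12.97 at 7 DAP, 1.77 at 25 DAP and 6.59 in leaf. The nitrite reductase matches GRMZM2G079381 and GRMZM2G102959 were at 13.55 and 3.43 FPKM in leaf and at or under 0.1 in every endosperm library. In the 3 and 5 DAP kernels GRMZM2G079381 had 0.67 and 0.59 FPKM. GRMZM2G102959 had 1.45 and 3.81, so its highest library was the 5 DAP kernel.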
